A study of Homo sapiens with 8 samples.

Results

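The genes described here handle fatty acids, and 9 were taken: ANGPTL4, LPL, FABP3, ACSL1, PLIN2, LIPE, CPT1A, FASN and SCD. Every H3K9ac or H4K16ac peak inside each gene or within 10 kb of either end was read from 4 deposited peak lists. The 9 genes were set beside 19793 protein-coding genes. The cells were KGN, a tumour line of granulosa cells, which surround the oocyte and make steroid hormones. As a single tumour line it may differ from normal granulosa cells. KGN cells were given 1 mM butyrate for 6 h, and the control cells went through the same culture without it. Butyrate is a short-chain fatty acid made by gut bacteria that blocks histone deacetylases. Acetylation at lysine 9 of histone H3 (H3K9ac) and at lysine 16 of histone H4 (H4K16ac) was read by chromatin immunoprecipitation and sequencing (ChIP-seq), with 1 library per mark and condition and an IgG library per condition. Without replicates no difference was tested, and each value below compares 2 libraries.

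Fatty acids reach a cell when lipoprotein lipase (LPL) frees them from triglyceride in lipoproteins, a step that ANGPTL4 inhibits. Inside the cell they are carried by binding proteins such as FABP3 and joined to coenzyme A by ACSL1. They are then stored in lipid droplets coated by PLIN2, released again by the lipase LIPE, or passed into mitochondria for oxidation through CPT1A. FASN makes palmitate from smaller units, and SCD puts the double bond into stearate that gives oleate. Granulosa cells keep lipid droplets as a source of cholesterol esters for steroid synthesis, and fatty acid oxidation in the follicle is known to support the oocyte. Nuclear receptors of the PPAR family, which bind fatty acids, are known to switch on ANGPTL4, FABP3, PLIN2 and CPT1A. H3K9ac marks the starts of active genes, and H4K16ac goes with open chromatin.

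Promoter sequences are shown for genes with an H3K9ac peak within 1 kb of the start with butyrate alone (ANGPTL4, FABP3, LIPE) and for 2 with one in both conditions (CPT1A, SCD). In LIPE that peak lies inside the gene, beyond the bases shown. In CPT1A the bases shown are at the RefSeq start, while the stronger peaks of both conditions lay beside the authors' start (68841916), which was not read. The sequences come from RefSeq (GRCh38.p14), run 5′ to 3′ along the gene from 250 bases before its start to 50 after, and 7 of the 9 genes matched the table; LPL and FASN did not. Capitals mark 3 motifs found on either strand: the GC box GGGCGG, the CCAAT box CCAAT and the TATA box TATAAA. The positions are chr19:8363905-8364204 (plus strand) for ANGPTL4, chr1:31373027-31373326 (minus strand) for FABP3, chr19:42427339-42427638 (minus strand) for LIPE, chr11:68844228-68844527 (minus strand) for CPT1A and chr10:100346983-100347282 (plus strand) for SCD.
ANGPTL4: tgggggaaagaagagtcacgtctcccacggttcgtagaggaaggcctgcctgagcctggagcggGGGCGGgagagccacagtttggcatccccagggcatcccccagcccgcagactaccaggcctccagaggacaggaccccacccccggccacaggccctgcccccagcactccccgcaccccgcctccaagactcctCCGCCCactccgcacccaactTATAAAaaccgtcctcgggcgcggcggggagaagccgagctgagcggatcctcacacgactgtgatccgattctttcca
FABP3: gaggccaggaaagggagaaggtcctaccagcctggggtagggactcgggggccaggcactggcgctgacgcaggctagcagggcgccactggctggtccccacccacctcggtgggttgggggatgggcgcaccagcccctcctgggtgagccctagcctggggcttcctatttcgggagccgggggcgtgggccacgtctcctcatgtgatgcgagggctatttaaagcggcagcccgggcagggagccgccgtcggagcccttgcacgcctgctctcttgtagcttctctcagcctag
LIPE: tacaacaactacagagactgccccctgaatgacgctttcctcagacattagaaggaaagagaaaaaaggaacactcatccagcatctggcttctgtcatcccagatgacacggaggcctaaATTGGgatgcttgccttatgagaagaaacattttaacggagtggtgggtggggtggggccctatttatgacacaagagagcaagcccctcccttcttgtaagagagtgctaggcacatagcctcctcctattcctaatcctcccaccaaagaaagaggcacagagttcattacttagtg
CPT1A: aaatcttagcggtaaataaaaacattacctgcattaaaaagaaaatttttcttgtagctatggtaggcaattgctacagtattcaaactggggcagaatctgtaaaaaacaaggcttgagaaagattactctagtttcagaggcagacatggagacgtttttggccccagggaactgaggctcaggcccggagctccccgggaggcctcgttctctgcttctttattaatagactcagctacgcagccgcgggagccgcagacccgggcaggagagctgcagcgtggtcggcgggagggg
SCD: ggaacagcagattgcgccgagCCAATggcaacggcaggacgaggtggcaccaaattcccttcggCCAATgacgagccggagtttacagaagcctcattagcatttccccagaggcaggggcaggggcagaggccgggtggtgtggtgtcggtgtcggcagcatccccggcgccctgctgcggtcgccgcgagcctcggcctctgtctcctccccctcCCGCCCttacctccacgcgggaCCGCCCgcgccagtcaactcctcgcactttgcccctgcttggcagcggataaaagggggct

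These starts differed in base composition. The dinucleotide CG occurred 20 times in the ANGPTL4 promoter, 17 times in FABP3 and only 3 times in LIPE, against 13 in CPT1A and 25 in SCD. PLIN2 had 36 and ACSL1 47, although neither had an H3K9ac promoter peak in either condition. Over 22132 promoters of the table the median was 21, and 3.12% had at least as many as ACSL1, which was read at the listed start nearest to its RefSeq gene start (184825968) of several. Among genes matched to the table, the median CG count was 16 in the 1349 with a promoter peak with butyrate alone, 27 in the 9086 with one in both conditions and 7 in the 5346 with none. ANGPTL4 held a TATA box whose first base lay at −29 from the start and GC boxes at −186 and −50. The GC box was found in 56.3% of all promoters, the CCAAT box in 34.6% and the TATA box in 9.46%. The half-site AGGTCA of nuclear receptors, searched on both strands and found in 11.9% of all promoters, was in none of the 7 windows. The E-box CACGTG occurred once, in PLIN2, and in 8.34% of all promoters. A match is a string of letters in this window and no evidence that a factor binds there. A missing exact match does not show that a site is absent, since other spellings and bases outside the window were not searched. With 7 windows, finding no half-site beside a share of 11.9% says little.

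The 4 lists differed in length and in their limits. They held 79356 H3K9ac peaks with butyrate, against 22215 in control, and 33752 H4K16ac peaks with butyrate, against 73586 in control. The deposited values implied 29.4 M reads (M, 1000000) for H3K9ac with butyrate and 24.3 M in control, and 23.9 M for H4K16ac with butyrate and 17.4 M in control. Each peak has a p-value from the authors' peak caller and a q, that p adjusted over the list, both given as −log10. Both H3K9ac lists ended at a q of 0.05. Since q depends on the whole list, the lowest −log10 p admitted was 2.97 with butyrate and 3.46 in control. The H4K16ac lists reached a q of 0.621 with butyrate and 0.304 in control. Names of peaks in the lists labelled H4K16ac carry "k12", and whether another lysine was meant cannot be told from the files. The IgG lists held 2 peaks with butyrate and 5 in control, none of them near these genes. Of 8 granulosa markers, 5 had an H3K9ac promoter peak with butyrate and 3 in control. FOXL2, INHA and CYP11A1 had one in both conditions, INHBA and AMHR2 with butyrate alone, and FSHR, CYP19A1 and NR5A1 in neither. Of 6 adipocyte markers, 1 had one with butyrate (CIDEC) and 0 in control. Of 6 macrophage markers, 3 had one with butyrate and 1 in control (CD68), and CSF1R and TYROBP were those present with butyrate alone. What part other cells had in the results was not tested.

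H3K9ac was called at many more sites in the windows of these genes with butyrate. In the 475 kb of the 9 windows, 86 H3K9ac peaks were called with butyrate, against 21 in control. They covered 12.5% of the windows with butyrate and 3.27% in control. The windows also hold neighbouring genes. The summits of 29 of the 86 and of 5 of the 21 lay inside another gene, some of them inside a member as well. Of the 86, 66 overlapped no control peak by even 1 bp, while 20 of the 21 control peaks were also found with butyrate. The 1 control peak left alone compares with 7.64% of all control H3K9ac peaks. The butyrate-alone peaks were 76.7% of the members' peaks, close to the 77.0% of all butyrate H3K9ac peaks. The 9 genes therefore did not stand apart from the whole list in this share. When both lists were limited to the same number of strongest peaks, 10 peaks were found with butyrate alone and 7 in control alone. H4K16ac went the other way, with 7 peaks with butyrate, against 35 in control, covering 0.454% and 2.99% of the windows. Of the 7, 6 were found with butyrate alone, as were 86.6% of all butyrate H4K16ac peaks. Of the 35, 34 were found in control alone, as were 93.8% of all control H4K16ac peaks.

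**Figure D1:**
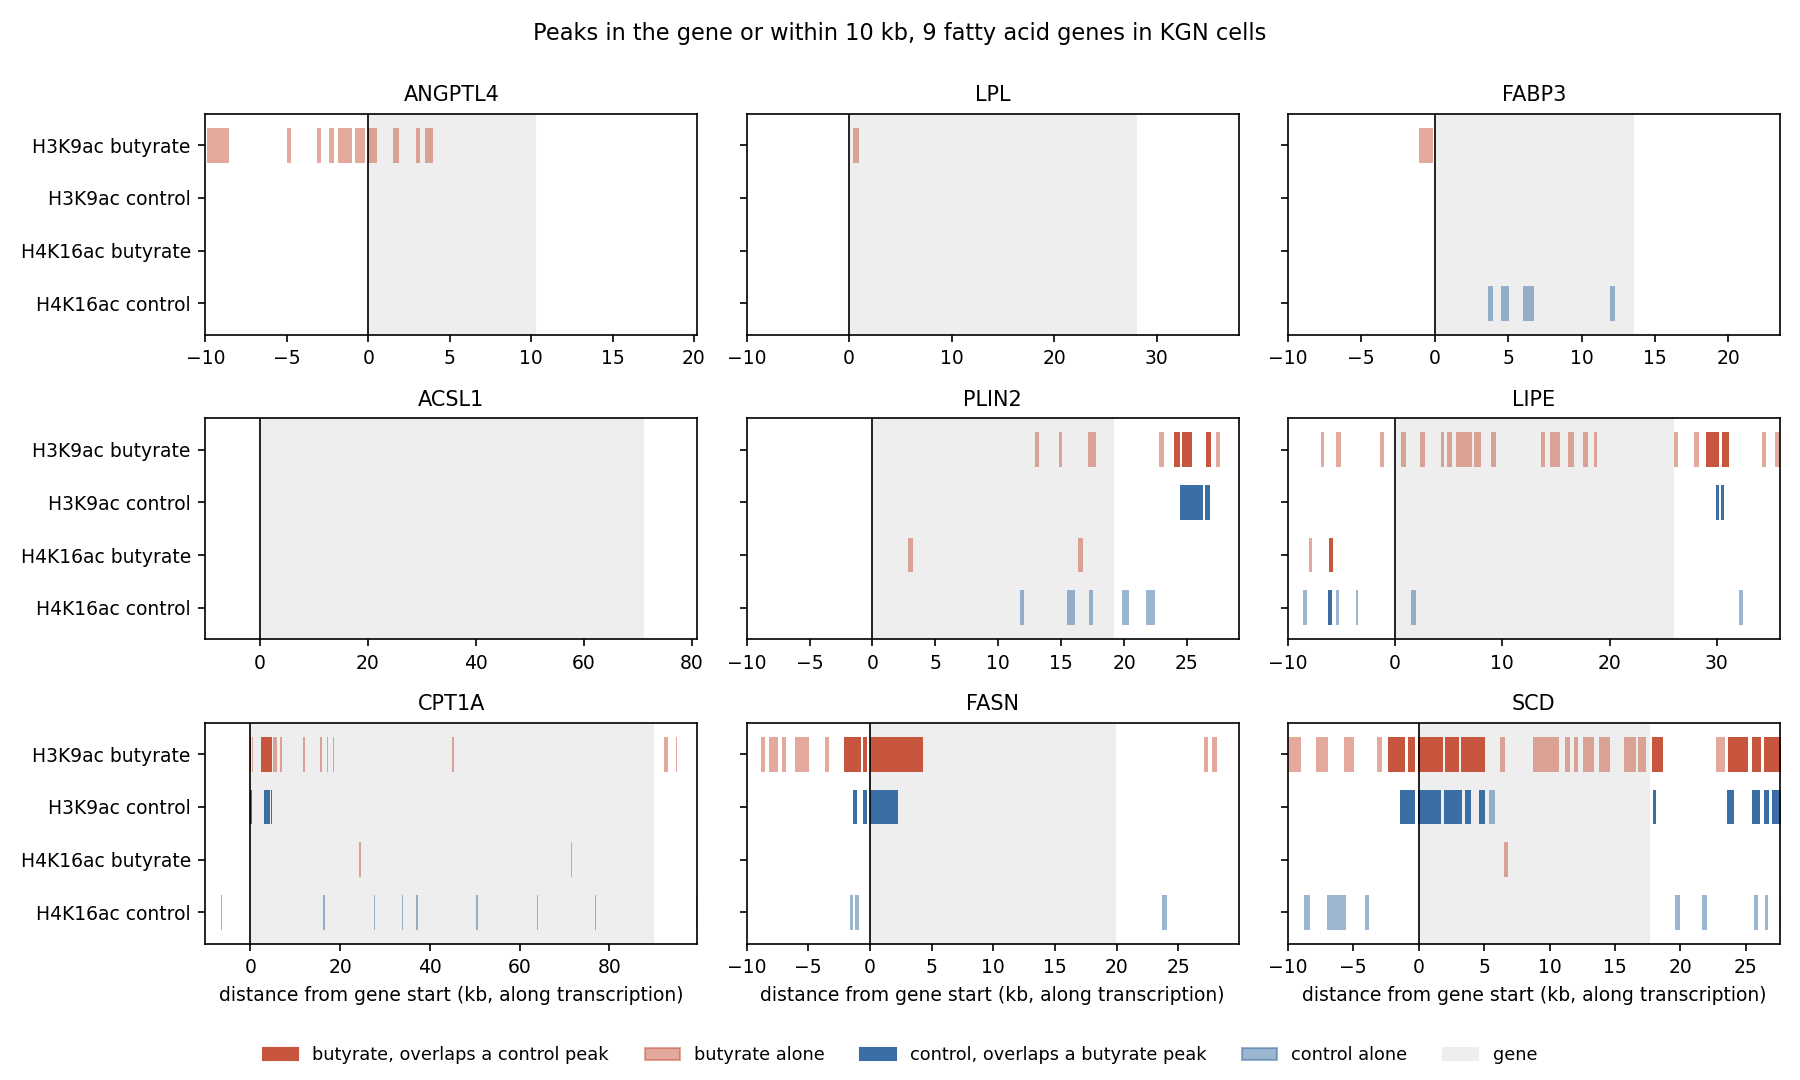
Positions of the H3K9ac and H4K16ac peaks of 4 libraries around the 9 genes, as distance in kb from the gene start along transcription, with the gene shaded and 10 kb on either side. Full colour marks peaks that overlap a peak of the other condition; the pale H3K9ac peaks of the butyrate lane are the 66 found with butyrate alone.

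Taken gene by gene, 8 of 9 genes had more H3K9ac peaks with butyrate than in control, as did 62.2% of all genes, and 0 of 9 had fewer, as did 4.18%. ACSL1 was the exception, with none in either condition. ANGPTL4, LPL and FABP3 had H3K9ac peaks with butyrate and none in control, a pattern found in 12.7% of all genes. The opposite pattern was found in 0 of 9 and in 0.187% of all genes. The median per window was 10 peaks with butyrate and 2 in control for the 9 genes, and 3 and 1 over all genes. Per 10 kb of window, the number with butyrate was 5.85 in SCD, 4.58 in LIPE, 3.31 in ANGPTL4, 2.51 in FASN, 2.05 in PLIN2 and 1.19 in CPT1A. It was 0.299 in FABP3, 0.208 in LPL and 0 in ACSL1. In control the same density was 2.93 in SCD, 0.752 in FASN, 0.511 in PLIN2, 0.436 in LIPE and 0.274 in CPT1A, and 0 in the other genes. The SCD window thus had the densest H3K9ac in both conditions. Of its peaks, 5 of 22 with butyrate and 5 of 11 in control lay beyond the 3′ end of SCD, on the side of OLMALINC.

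**Figure D2:**
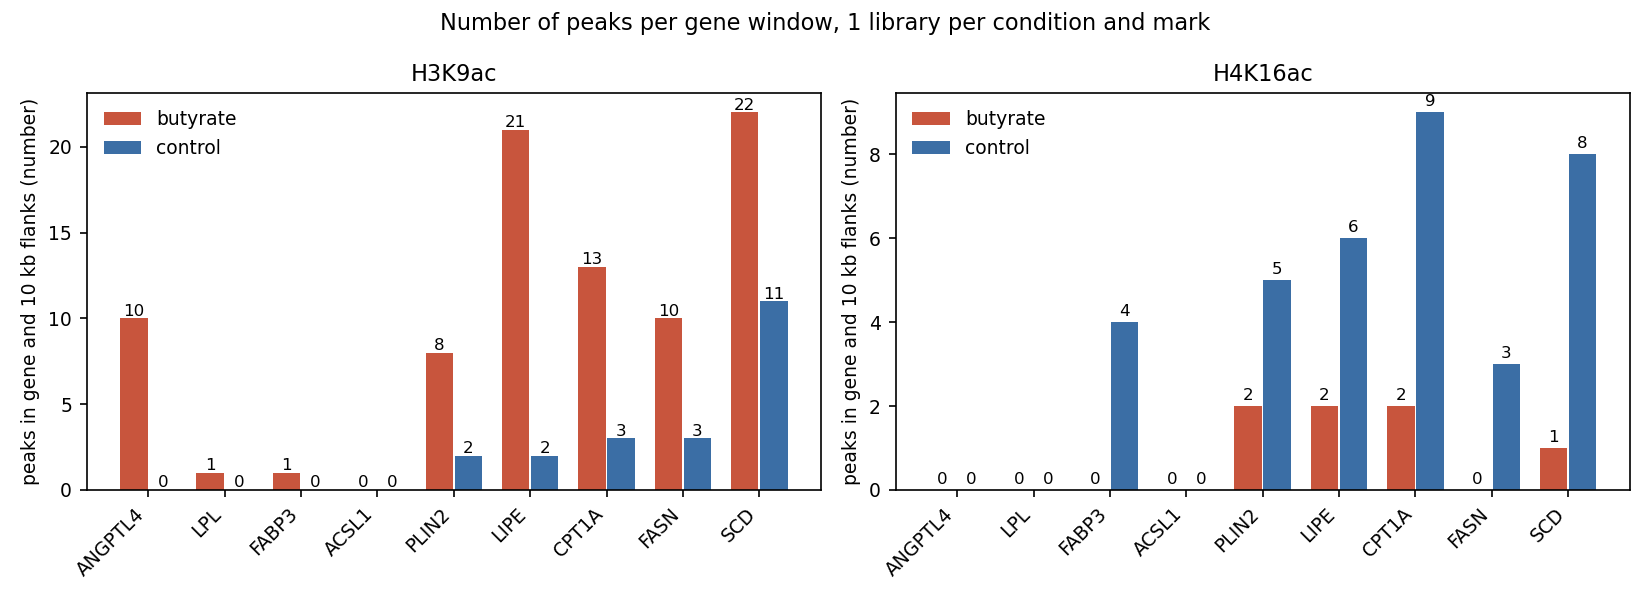
Number of H3K9ac (left) and H4K16ac (right) peaks in each gene and its 10 kb flanks, butyrate left of control, 1 library each. The H3K9ac bars are higher with butyrate in 8 genes, up to 22 against 11 in SCD, and the H4K16ac bars are higher in control in 6.

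At the gene starts, 7 of the 9 genes had an H3K9ac peak within 1 kb with butyrate and 3 in control, against 64.0% and 54.9% of all genes. A promoter peak was present with butyrate alone in ANGPTL4, LPL, FABP3 and LIPE, which is 4 of 9, beside 9.32% of all genes. Among genes with no control promoter peak, these were 4 of 6, beside 20.7% of all such genes. CPT1A, FASN and SCD had a promoter peak in both conditions, as did 54.7% of all genes. PLIN2 and ACSL1 had one in neither condition, as did 35.8% of all genes. A promoter peak in control alone occurred at 0 of the 9 genes and at 0.182% of all genes, and none of the 3 genes with a control peak lost it, beside 0.331% of all such genes. With equal numbers of top peaks the gain was left at ANGPTL4 alone, and with a −log10 q of at least 5 in both lists at ANGPTL4 and FABP3. The 4 gains lay at genes of uptake, transport and lipolysis, and the peaks in both conditions at genes of mitochondrial entry and of synthesis. With 1 or 2 genes per role, roles cannot be compared, and the LPL peak was too weak for the control list. Among the further genes described below, gains numbered 3 of 15 for uptake, 3 of 16 for storage and 0 of 5 for lipolysis. They numbered 2 of 18 for oxidation and 1 of 10 for synthesis (ACACB, whose peak was also too weak for the control list). With 9 genes chosen with earlier results of these data known, the shares of the 9 genes describe the list and nothing beyond it.

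The windows ended at 10 kb, and some peaks lay close to that border. The farthest butyrate H3K9ac peak taken in began 9.59 kb from LIPE, and the nearest left out lay 10.1 kb from ANGPTL4 and 10.3 kb from LIPE. Among control H4K16ac peaks the farthest taken in lay 9.99 kb from SCD, and the nearest left out 11.1 kb from FASN. For H3K9ac in control these were 9.40 kb from SCD and 12.7 kb from FASN. For H4K16ac with butyrate they were 7.76 kb from LIPE and 11.2 kb from FABP3.

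ANGPTL4 encodes a secreted protein that inhibits lipoprotein lipase (chr19:8364155-8374370, plus strand). It had 10 H3K9ac peaks with butyrate and 0 in control, and no H4K16ac peak in either condition. Of the 10, 6 lay upstream of the gene and 4 in its body; none lay beyond its 3′ end. The start itself was covered by a peak at chr19:8364133-8364685, which the authors' annotation places in the 5′ UTR, with an authors' −log10 q of 4.94. It had 22 fragments at its summit, the number of reads stacked there after extension to fragment length, as recovered from the authors' fold and p. A wider peak at chr19:8362314-8363163 had its summit at −1695 bp from the start, with 19 fragments and a −log10 q of 8.11, the highest of the 10. Between them lay a weak peak at chr19:8363360-8363975, with 9 fragments and a −log10 q of 1.37. Of the 300 promoter bases shown, 143 lay in butyrate peaks and 0 in control peaks. The peak farthest upstream, at chr19:8354262-8355588, was the widest at 1327 bp, with 18 fragments and a −log10 q of 5.16. The 3 gene-body peaks downstream of the start lay in introns 1 and 3 and had 11 or 12 fragments each. Peaks covered 17.5% of this window with butyrate. At least 10 peaks were found in 15.8% of all genes with butyrate.

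LPL encodes the lipase that frees fatty acids from lipoprotein triglyceride (chr8:19939253-19967259, plus strand). It had 1 H3K9ac peak with butyrate and 0 in control, and no H4K16ac peak in either condition. The peak lay in intron 1 at chr8:19939614-19940181, with its summit 498 bp downstream of the start. It had 10 fragments, with an exact 95% Poisson interval of 4.80 to 18.4 that covers counting error only, and a −log10 q of 1.59. Its −log10 p was 3.36 and the control list admitted nothing under 3.46, so a peak of this strength could not have entered that list. The lists therefore cannot show a difference at LPL.

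FABP3 encodes the fatty acid carrier of heart and muscle (chr1:31359588-31373076, minus strand). It had 1 H3K9ac peak with butyrate and 0 in control. The peak at chr1:31373163-31374140 lay 0.087 kb outside the gene, on its upstream side, with the summit at −846 bp from the start, 18 fragments (95% interval 10.7 to 28.4) and a −log10 q of 5.42. It covered 164 of the 300 promoter bases, against 0 in control. H4K16ac ran in the opposite direction, with 0 peaks with butyrate and 4 in control, all in the gene body and with 7 to 9 fragments each. In control, 2 of them, in intron 2 and the last intron, had a q of 0.05 or less, with −log10 q values of 1.77 and 1.61. The other 2 had −log10 q values of 0.845 and 0.588, and the first of them also lay inside the overlapping gene ZCCHC17. FABP3 thus had an H3K9ac peak at its start with butyrate and weak H4K16ac peaks in its body in control.

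ACSL1 encodes the synthetase that joins long-chain fatty acids to coenzyme A (chr4:184755595-184826594, minus strand). No peak of any of the 4 lists lay in its window of 91.0 kb. Windows without any peak occurred in 20.2% of all genes, in 17.2% of genes at least as long as ACSL1 and in 38.7% of the genes on chromosome 4. Among genes with a known strand alone these shares were 17.0%, 15.0% and 34.4%. The nearest H3K9ac peak lay 106 kb away with butyrate and 21.2 kb away in control, while the nearest H4K16ac peak lay 11599 kb and 10447 kb away. On chromosome 4 as a whole, H4K16ac promoter peaks were found at 0.26% of genes with butyrate and at 2.99% in control, against 4.66% and 18.9% of all genes. For H3K9ac the shares on this chromosome were 51.3% with butyrate and 46.8% in control. An empty window says that nothing passed the authors' limits there, not that the marks were absent, and the source of the gap on this chromosome was not tested.

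PLIN2 encodes a coat protein of lipid droplets (chr9:19108388-19127492, minus strand). It had 8 H3K9ac peaks with butyrate and 2 in control, and none of them lay upstream of the gene or within 1 kb of its start. Of the 8, 3 lay in the gene body, all with butyrate alone, with 11 to 15 fragments and −log10 q values of 2.34 to 4.78. The other 5, and both control peaks, lay beyond the 3′ end towards the neighbouring gene HAUS6. The strongest was at the near end of HAUS6, with 27 fragments and a −log10 q of 14.6 with butyrate, against 35 fragments and 20.1 in control. Per 10 M implied reads this was 9.20 fragments with butyrate and 14.4 in control, a ratio of 0.640. H4K16ac peaks numbered 2 with butyrate and 5 in control. No base of the PLIN2 promoter lay in an H3K9ac peak in either condition.

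LIPE encodes hormone-sensitive lipase, which breaks down stored lipid and in steroid-making cells also cholesterol esters (chr19:42401514-42427388, minus strand). It had 21 H3K9ac peaks with butyrate and 2 in control, and 19 of the 21 were found with butyrate alone. At least as many butyrate peaks were found in 2.25% of all genes. Of the 21, 12 were spread along the gene body, with 9 to 22 fragments, and none of these was called in control. The peak nearest the start, at chr19:42426364-42426820 in exon 1, had its summit 683 bp inside the gene, with 14 fragments and a −log10 q of 2.84. It did not reach the 300 promoter bases, of which 0 lay in a peak in either condition. RefSeq lists 1 other start for LIPE, which was not used here. In the gene body the strongest peak was at chr19:42420249-42421699 in intron 1, 1451 bp wide, with 20 fragments and a −log10 q of 7.88. All 12 also lay inside the antisense gene LIPE-AS1, and ChIP-seq does not tell the 2 genes apart. The peaks in both conditions lay beyond the 3′ end of LIPE, around the end of LIPE-AS1 that lies there. The stronger of them with butyrate, at chr19:42397140-42398419, had 32 fragments and a −log10 q of 17.1, against 23 fragments and 5.26 in control. Per 10 M implied reads this was 10.9 fragments with butyrate and 9.45 in control, a ratio of 1.15. The background there was 3.40 fragments with butyrate and 5.83 in control. In control the other of these peaks also had 23 fragments, with a −log10 q of 10.8. Peaks covered 25.3% of the window with butyrate and 1.23% in control. H4K16ac peaks numbered 2 with butyrate and 6 in control, and 1 of each, about 6 kb upstream, was the only H4K16ac pair that overlapped among all 9 genes. This pair lay inside the neighbouring protein-coding gene CXCL17. So did both butyrate H4K16ac peaks, 4 of the 6 control ones and the 3 H3K9ac peaks upstream of LIPE.

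CPT1A encodes the carnitine palmitoyltransferase that controls the entry of long-chain fatty acids into mitochondria (chr11:68754620-68844277, minus strand). It had 13 H3K9ac peaks with butyrate and 3 in control, and all 3 control peaks were also found with butyrate. The strongest lay in intron 1, beside the start that the authors' annotation uses (68841916). There the butyrate peak at chr11:68840155-68841852 had 29 fragments and a −log10 q of 15.0, and the control peak at chr11:68839970-68841293 had 26 fragments and a −log10 q of 12.1. At the RefSeq start the peaks were weaker, with 15 fragments with butyrate and 13 in control. Of the 300 promoter bases, 153 lay in peaks with butyrate and 121 in control. The 10 peaks found with butyrate alone had 9 to 22 fragments. Of these, 8 lay in the gene body, and 2 lay beyond the 3′ end in or across the edge of TESMIN, the stronger with a −log10 q of 10.6. H4K16ac peaks numbered 2 with butyrate and 9 in control, 7 of the 9 in the gene body. The strongest in control, in intron 1 at chr11:68816567-68816818, had 10 fragments and a −log10 q of 2.19.

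FASN encodes fatty acid synthase, the enzyme that builds palmitate (chr17:82078338-82098236, minus strand). It had 10 H3K9ac peaks with butyrate and 3 in control. The same 3 places around the start were marked in both conditions. Inside the gene the peak was 4269 bp wide with butyrate and 2261 bp in control, at almost the same height of 9.88 and 10.3 fragments per 10 M implied reads. About 1 kb upstream the butyrate peak was 1355 bp wide with 19 fragments, and the control peak was 336 bp wide with 9 fragments. This was the highest ratio of butyrate over control per implied read among the shared H3K9ac peaks of the 9 genes, at 1.75. A further 5 peaks, found with butyrate alone, lay upstream inside CCDC57, with 12 to 22 fragments and −log10 q values of 2.67 to 8.85. H4K16ac peaks numbered 0 with butyrate and 3 in control. Of the 3, the one at chr17:82099113-82099434 reached the promoter and overlapped the H3K9ac peaks of both conditions there, with 7 fragments and a −log10 q of 1.06. FASN was the only one of the 9 genes with an H4K16ac promoter peak, and that peak did not reach a q of 0.05.

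SCD encodes stearoyl-CoA desaturase (chr10:100347233-100364826, plus strand). It had 22 H3K9ac peaks with butyrate and 11 in control. At least as many were found in 2.00% of all genes with butyrate and in 0.268% in control. Peaks covered 55.8% of the window with butyrate and 21.0% in control. At the start the butyrate peak at chr10:100347197-100349078 had 31 fragments and a −log10 q of 14.1, and the control peak at chr10:100347203-100348916 had 27 fragments and 13.1. Per 10 M implied reads this was 10.6 fragments with butyrate and 11.1 in control, a ratio of 0.952. Just upstream the peak had 24 fragments with butyrate, against 31 in control, or 8.18 and 12.7 per 10 M implied reads, a ratio of 0.642. Of the 13 peaks found with butyrate alone, 8 lay in the gene body, 4 upstream and 1 downstream, with 10 to 20 fragments. The 1 H3K9ac peak of the 9 genes found in control alone lay in intron 3 at chr10:100352619-100353076, with 11 fragments and a −log10 q of 2.47. Downstream, around the near end of the non-coding gene OLMALINC, the strongest peaks had 29 fragments with butyrate, against 33 and 30 in control. H4K16ac peaks numbered 1 with butyrate and 8 in control. The strongest of these, with its summit at −6839 bp from the start, was 1417 bp wide with 13 fragments and a −log10 q of 3.44, the highest H4K16ac value near any of the 9 genes.

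Where a control and a butyrate peak overlapped, their heights differed in either direction. Fragments at the summit were divided by the implied depth. Each control peak was set beside the highest butyrate peak that overlapped it, whose summit could lie outside the control peak. A butyrate peak could serve more than 1 control peak, so the ratios are not all of separate places. For the 20 shared H3K9ac peaks, the median ratio of butyrate over control was 0.960, with a range of 0.622 to 1.75, and 11 of 20 were below 1. Over all 20517 shared H3K9ac peaks the median was 1.02, and 47.8% were below 1. In SCD the ratio ran between 0.642 and 1.66, with no common direction. The 1.66 set the control peak at chr10:100370826-100371302 beside a butyrate summit at 100372155, outside that peak. Peaks found with butyrate alone were lower and narrower than shared ones, a difference that sorting by overlap with a limited list itself favours. Their median was 13 fragments and 450.5 bp for the 9 genes, against 24 fragments and 911.5 bp for shared butyrate peaks, and the same held over all peaks, with 14 and 404 against 26 and 1279. Of the 86 butyrate H3K9ac peaks, 9 were too weak for the control list, with a −log10 p under 3.46.

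**Figure D3:**
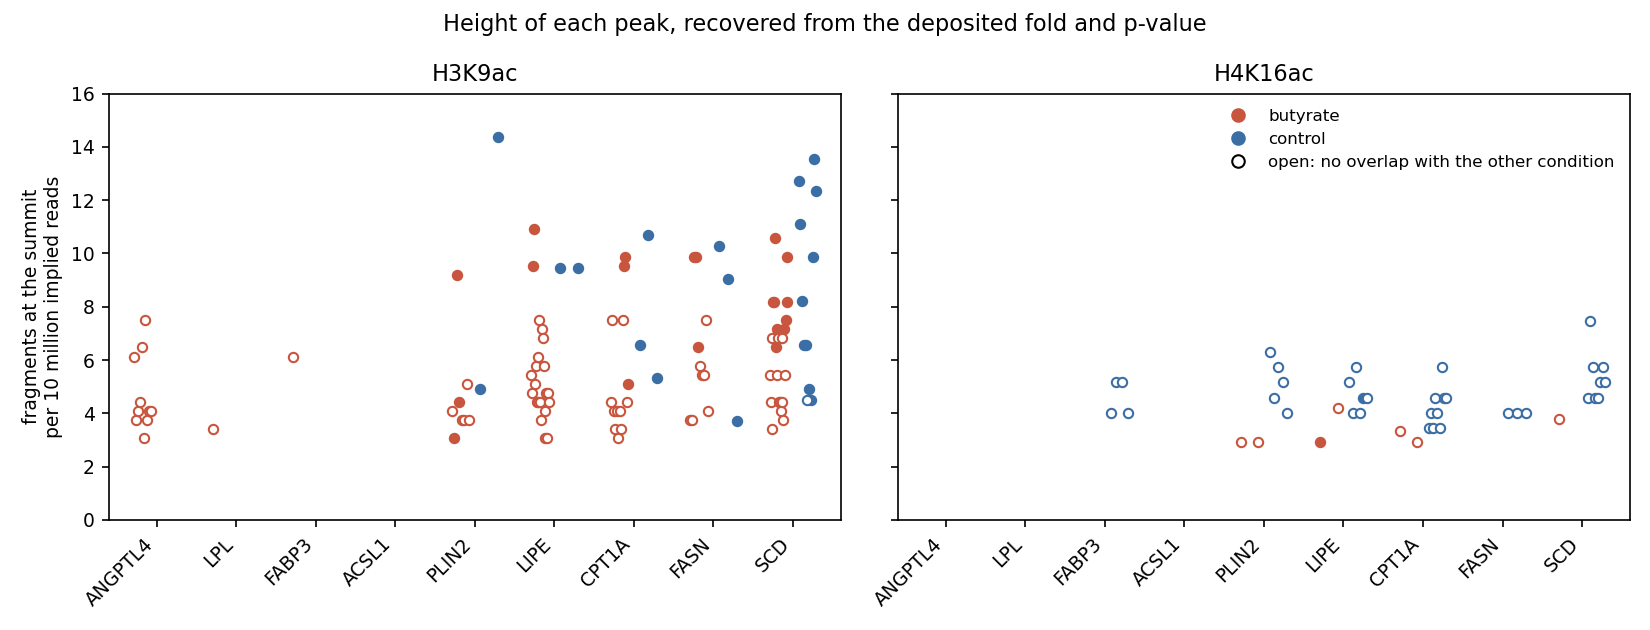
Fragments at the summit per 10 M implied reads for every H3K9ac (left) and H4K16ac (right) peak near the 9 genes, butyrate left of control. Open symbols, peaks of 1 condition alone, lie mostly below the filled ones. The tallest peak, at 14.4, is a control peak of the PLIN2 window with its summit inside the neighbouring gene HAUS6.

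**Figure D4:**
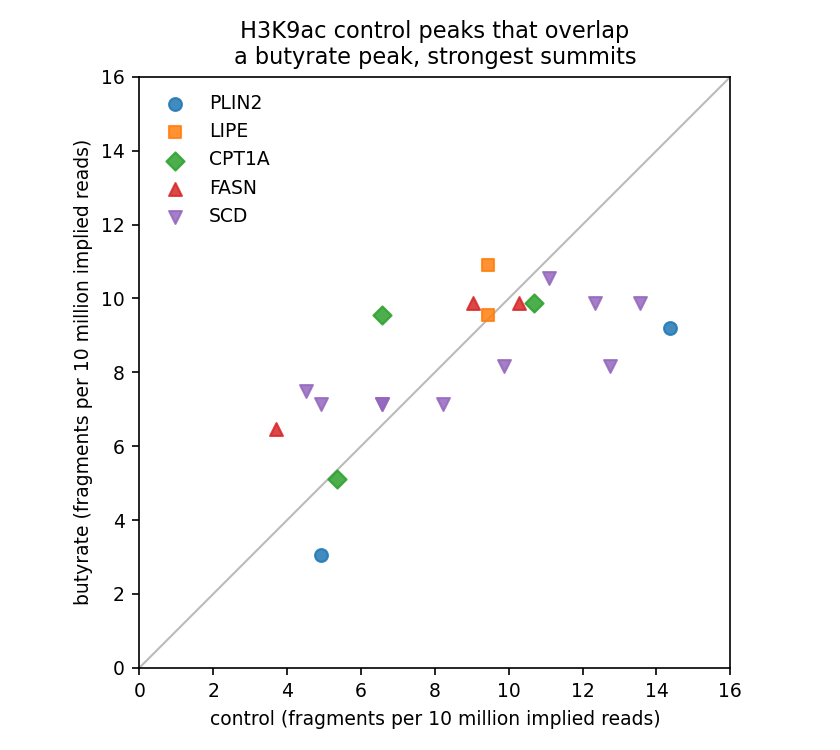
Fragments at the summit per 10 M implied reads for the 20 control H3K9ac peaks that overlap a butyrate peak, butyrate on the vertical axis and control on the horizontal one. The points lie on both sides of the line of equal height, 11 of 20 below it.

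H4K16ac was sparser around these genes with butyrate. Fewer peaks were called with butyrate than in control in 6 of 9 genes, as in 48.9% of all genes. In 0 of 9 there were more, beside 13.1% of all genes, and the remaining 3 (ANGPTL4, LPL and ACSL1) had none in either condition. FABP3 and FASN had H4K16ac peaks in control alone, a pattern of 17.2% of all genes. Peaks with butyrate and none in control were found in 0 of 9 and in 6.62% of all genes. The median per window was 0 with butyrate and 4 in control for the 9 genes, and 1 and 2 over all genes. A q of 0.05 or less was reached by 0 of the 7 butyrate peaks, beside 1.13% of all butyrate H4K16ac peaks, and by 12 of the 35 control peaks, beside 39.6% of all control ones. Their heights were 7 to 10 fragments with butyrate and 6 to 13 in control. By gene, 5 of those 12 lay near SCD, 3 near CPT1A, 2 near FABP3 and 2 near LIPE. At promoters, 0 of 9 genes had an H4K16ac peak with butyrate and 1 in control (FASN), beside 4.66% and 18.9% of all genes. A promoter peak in control alone was found in 16.8% of all genes, one with butyrate alone in 2.58% and one in both conditions in 2.08%. A gain was found in 0 of the 8 genes without a control peak, beside 3.18% of all such genes. Of the 3741 genes with a control promoter peak, 89.0% had none with butyrate, so FASN did what most such genes did.

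The overlap of the 2 marks was also counted. Of the 86 butyrate H3K9ac peaks, 1, in intron 3 of SCD, overlapped a butyrate H4K16ac peak, beside 5.04% of all butyrate H3K9ac peaks. Of the 86, 7 overlapped a control H4K16ac peak, beside 13.5% of all, with 4 of the 7 near SCD and 1 each near FASN, LIPE and PLIN2. Of the 21 control H3K9ac peaks, 4 overlapped a control H4K16ac peak, beside 17.0% of all, 3 of them near the OLMALINC end of SCD and 1 upstream of FASN.

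The wider pathway was read at promoters, over 65 further genes of fatty acid handling, of which 64 could be scored. An H3K9ac promoter peak was found at 45 with butyrate and at 36 in control, and every one of the 36 was also present with butyrate. HADHA and HADHB share 1 such peak in each condition, and so do FADS1 and FADS2. In 9 genes, or 14.1%, there was one with butyrate alone, beside 9.32% of all genes. Of the 28 without a control peak these were 32.1%, beside 20.7%. Of them, 3 act in uptake: VLDLR, a lipoprotein receptor (−log10 q 10.0), SLC27A1, a fatty acid transporter (6.56), and GPIHBP1, which holds LPL on capillary walls (2.53). Another 3 coat or enlarge droplets: PLIN4 (12.6), CIDEC (5.59) and CIDEB (3.14). CPT1C (8.55) and CPT1B (2.69) are relatives of CPT1A, and ACACB (1.43) makes the malonyl-CoA that inhibits CPT1. The ACACB peak had a −log10 p of 3.14, under the control limit of 3.46, so a peak of this strength could not have entered the control list. With 1 p limit for both lists, 8 gains were left, without ACACB. SLC27A1 was not among the gains with promoters of 2.5 kb, nor CPT1C with the RefSeq start alone. By role, the promoter peaks with butyrate and in control numbered 4 and 1 of 15 uptake genes, 11 and 8 of 16 storage genes, and 4 and 4 of 5 lipolysis genes. They numbered 17 and 15 of 18 oxidation genes, and 9 and 8 of 10 synthesis genes. Over all genes the shares were 64.0% with butyrate and 54.9% in control.

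For H4K16ac the same genes had 3 promoter peaks with butyrate and 12 in control. The peak was lost in 10, 83.3% of the 12, beside 89.0% of all genes with a control peak. FADS1 and FADS2 share 1 of these peaks. The strongest lost peaks were at BSCL2, the droplet protein seipin (−log10 q 3.71), SLC27A3, an acyl-CoA synthetase of the fatty acid transporter family (2.18), and SLC25A20, the mitochondrial carnitine carrier (1.77). ACACB alone had one with butyrate and not in control, with a −log10 q of 0.207.

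**Figure D5:**
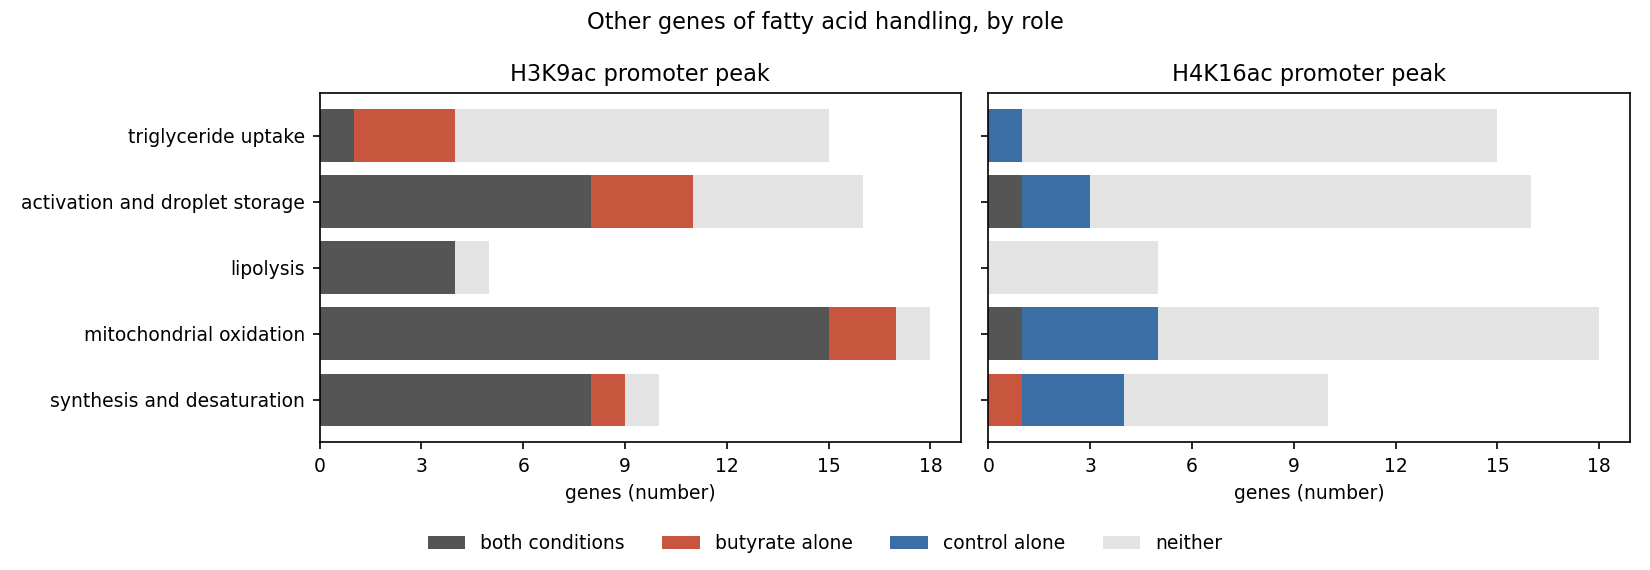
Number of genes with an H3K9ac (left) or H4K16ac (right) promoter peak in both conditions, with butyrate alone, in control alone or in neither, for 64 further fatty acid genes by role. H3K9ac has no gene with a peak in control alone, and H4K16ac has 10.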

How the data were processed

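The deposited tables are peak lists of 1 library each, called by the authors. CASAVA 1.7, MACS2 2.1.0 and the build hg19 (GRCh37) are named in the submitters' processing notes. For 14061 genes the deposited gene start was at a median distance of 65 bp from the start in RefSeq GRCh38.p14, and for 98.7% within 100 kb, so positions were read as GRCh38. For the aligner and duplicate filter, the sources used here give nothing. Per the file headers, each peak has the authors' fold enrichment (a ratio of summit pileup to background), −log10 p and −log10 q values. The deposited score was not used. These are the authors' values for each peak and only describe or filter peaks within a list.

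Rows sharing bases were merged to 1 peak, on chromosomes 1 to 22 and X, and 1 was added to starts. An overlap of 1 bp or more made peaks shared. A promoter peak reached within 1 kb of the RefSeq or the authors' gene start. Of 19974 protein-coding genes, 18917 had a strand. A further 876 without one were kept, as having no promoter peak, because no histone peak lay near either end, and 181 with such a peak were left out. Presence of a peak thus decided which of these genes stayed. Among the 18917 alone, computed after seeing the data, H3K9ac promoter peaks were found in 67.0% with butyrate and 57.4% in control, and were gained in 9.75%. Fragments at a summit were solved from fold and p, assuming MACS2's Poisson test, with a tolerance of 0.001 in −log10 p, and tested on simulated data. Implied reads follow from the background and a genome size of 2.7 Gb. Intervals are exact Poisson at 95% and cover counting error only. Python 3.11.15, pandas 2.3.3, numpy 2.4.6 and scipy 1.17.1 were used.

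There is 1 library per mark and condition, so no test was made. The members and lists were chosen with earlier results of these data known. All members are named; of the 65 further genes, all with an H3K9ac promoter peak in 1 condition alone, those with an H4K16ac peak with butyrate alone, and the 3 strongest with one in control alone. Alternatives were equal list lengths, stricter limits, other windows, the RefSeq start alone, a larger overlap and 1 p limit for both H3K9ac lists. The 2 input samples were not analysed here.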

Additional observations from a re-analysis of the deposited data

How the results depend on the processing

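Near the 9 genes, gained H3K9ac peaks outnumbered lost ones and lost H4K16ac peaks outnumbered gained ones in every setting run, but the counts rest on list length. With equal numbers of top peaks, H3K9ac promoter gains numbered 1 (ANGPTL4) in place of 4, gained peaks 10 in place of 66 and lost peaks 7 in place of 1. Over all genes, that setting gave 645 promoter gains and 528 losses. Among the further genes it gave 4 gains and 1 loss (HADH). For H4K16ac it gave 0 promoter losses, 16 lost peaks and 6 losses among the further genes.

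With stricter limits (−log10 q of at least 5 for H3K9ac, q of 0.05 for H4K16ac), H3K9ac promoter gains numbered 2 (ANGPTL4, FABP3), gained peaks 18 and lost peaks 0. H4K16ac then had 0 promoter losses, 0 gained and 12 lost peaks, and 0 gains among the further genes. Without flanks, gained H3K9ac peaks numbered 36 and lost H4K16ac peaks 15. With 25 kb flanks, lost H3K9ac peaks numbered 3 and gained H4K16ac peaks 12. Promoters of 2.5 kb gave 2 H4K16ac losses (FASN, LIPE) and 3 gains among the further genes, and the RefSeq start alone gave 2 such gains. For H3K9ac among the further genes, promoters of 2.5 kb gave 10 gains, with PLIN5 and SLC27A3 in and SLC27A1 out. The RefSeq start alone gave 9, with ACADVL in and CPT1C out, so a close count did not mean the same genes. An overlap of 50% or more of both peaks gave 12 lost H3K9ac peaks. A p limit common to both H3K9ac lists, chosen after seeing the data, gave 2 lost peaks and 3 promoter gains (LPL no longer counted). Among the further genes it gave 8 gains (ACACB no longer counted).

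Of 58 alternative values, 34 were counted as near the main value and 24 were not, by a wide margin. Those counted as near include 98 gained H3K9ac peaks beside 66, with 25 kb flanks. They also include 15 H4K16ac promoter losses beside 10 among the further genes, with promoters of 2.5 kb. The cause of these differences was not tested. No paired analysis was possible because each mark has 1 library per condition.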
